A study of Mus musculus with 34 samples.

Results

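Metallothioneins and zinc transporters were described across mouse thoracic spinal cord with and without injury. The set comprised Mt1, Mt2 and Mt3, the zinc importer genes Slc39a8 and Slc39a14, and the zinc exporter gene Slc30a1. Members were all probe sets to which the array platform's annotation gives 1 of these 6 symbols, 12 of 45101 probe sets for 6 of 18194 named genes. The study hybridised 34 one-colour Affymetrix arrays, each from a biological replicate according to the labels, to compare mice lacking trkB.T1 (KO) with trkB.T1 WT mice. trkB.T1 is the truncated, kinase-less form of TrkB, which Ntrk2 encodes and which binds brain-derived neurotrophic factor. All mice were on the C57BL/6J strain after more than 20 generations of backcrossing and were 8 to 12 weeks old. The groups were sham KO (n = 4) and sham WT (n = 4), and then moderate contusion injury at day 1 in KO (n = 4) and WT (n = 5), at day 3 in KO (n = 5) and WT (n = 4), and at day 7 in KO (n = 4) and WT (n = 4). The labels name no driver line or cell type for the deletion, and whether a group's mice share litters is not stated. The RNA came from whole tissue, so fewer cells of a type and less RNA per cell cannot be told apart.

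Metallothioneins are small cysteine-rich proteins that bind zinc and copper, buffer free zinc and take up reactive oxygen. Mt1 and Mt2 are induced by metals, glucocorticoids, inflammatory cytokines and oxidative stress and are made mainly by astrocytes in the spinal cord, whereas Mt3 is a brain-enriched form that responds little to metals. Free zinc activates the transcription factor MTF1, which binds metal response elements in the promoters of Mt1, Mt2 and Slc30a1. ZIP8 (Slc39a8) and ZIP14 (Slc39a14) carry zinc, manganese and iron into the cytosol, and ZnT1 (Slc30a1) carries zinc out of the cell.

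The promoter windows of 4 members are shown because the metal response element is the known route by which zinc acts on Mt1, Mt2 and Slc30a1, with Mt3 beside them. Each window runs from 250 bases before the annotated start of transcription to 50 bases after it, 5′ to 3′ on the plus strand of mouse assembly GRCm38.p6, from RefSeq. For Mt1 and Slc30a1 that start lies inside the span of the gene, which begins farther upstream in the annotation. The array files name no genome build. Capitals mark the 7-base core of the element, TGCACNC or TGCGCNC, searched on both strands. No 2 marked cores overlap. The windows are chr8:94178839-94179138 for Mt1, chr8:94172368-94172667 for Mt2, chr8:94152357-94152656 for Mt3 and chr1:191906531-191906830 for Slc30a1.
Mt1: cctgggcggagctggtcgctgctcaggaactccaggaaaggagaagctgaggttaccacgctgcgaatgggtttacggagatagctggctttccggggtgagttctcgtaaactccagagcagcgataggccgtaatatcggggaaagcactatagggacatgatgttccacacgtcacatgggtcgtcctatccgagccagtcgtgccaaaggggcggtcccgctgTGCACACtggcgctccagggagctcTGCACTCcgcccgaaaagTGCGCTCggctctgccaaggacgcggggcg
Mt2: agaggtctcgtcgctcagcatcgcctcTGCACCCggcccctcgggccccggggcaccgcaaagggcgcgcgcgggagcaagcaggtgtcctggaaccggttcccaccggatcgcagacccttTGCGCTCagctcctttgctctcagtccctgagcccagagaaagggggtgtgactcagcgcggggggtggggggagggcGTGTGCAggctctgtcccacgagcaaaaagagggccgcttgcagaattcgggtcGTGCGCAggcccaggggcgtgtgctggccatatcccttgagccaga
Mt3: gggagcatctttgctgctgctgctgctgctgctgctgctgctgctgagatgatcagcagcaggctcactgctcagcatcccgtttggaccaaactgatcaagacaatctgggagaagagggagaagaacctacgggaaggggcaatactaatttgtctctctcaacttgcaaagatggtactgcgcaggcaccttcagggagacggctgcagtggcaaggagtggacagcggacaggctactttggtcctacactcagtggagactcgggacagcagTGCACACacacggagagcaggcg
Slc30a1: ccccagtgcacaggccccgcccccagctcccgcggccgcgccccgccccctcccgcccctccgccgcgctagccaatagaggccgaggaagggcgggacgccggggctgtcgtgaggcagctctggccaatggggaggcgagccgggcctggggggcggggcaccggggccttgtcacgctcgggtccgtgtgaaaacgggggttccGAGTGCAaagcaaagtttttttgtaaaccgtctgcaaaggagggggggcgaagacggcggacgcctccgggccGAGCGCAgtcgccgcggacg

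Mt1 held 3 cores, Mt2 4, Slc30a1 2 and Mt3 1. At least 1 core was found in 25.7% of 32851 promoter windows of the same length, at least 2 in 7.11%, at least 3 in 1.97% and at least 4 in 0.517%. In Mt1 all 3 cores lay on the plus strand near the downstream end of the window, at bases 228 to 234, 253 to 259 and 271 to 277. The first 2 cores of Mt2 lay on the plus strand and the other 2 on the minus strand, and both Slc30a1 cores lay on the minus strand. The 2 windows of Slc39a8 held no core and 1 core. A match in these letters is a description of the window and not a measured binding site. The Mt genes are neighbours on chromosome 8, with Mt3 at 94152607 to 94154148, Mt2 at 94172618 to 94173567 and Mt1 at 94178883 to 94180327. Slc39a8 lies on chromosome 3, Slc39a14 on chromosome 14 and Slc30a1 on chromosome 1.

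Signals are the deposited log2 values, which ran from 2.17 to 15.904 over all arrays, with 33.7% of values within 0.1 of the lowest. Of the 12 member probe sets 10 passed the filter of log2 4 in at least 4 arrays. Slc39a8 1448482_at reached 2.529 and Slc39a14 1425649_at 3.816 at most, and neither was tested. On an Ntrk2 probe set that separates the genotypes, the injured KO arrays read 3.123 to 4.938 and the WT arrays 10.008 to 10.854. The library labelled sham KO replicate 2 read 9.463 there, and on a further Ntrk2 probe set it read 8.591, where the injured KO arrays all read 2.826 and the WT arrays 8.645 to 9.915. Day 1 WT replicates 1 and 2 carry day 7 and sham in other label fields, and the title was followed. The control arrays are sham by title, while their description codes begin with Nav. Marker genes of neurons, oligodendrocytes and astrocytes were bright in sham arrays, with mean signals of at least 12.101. When arrays were weighted by how closely they follow the model, day 3 WT replicate 2 had the lowest weight (0.09). It held 5 of the 11 member values that stood apart from their group. Day 3 KO replicates 3 and 4 had the next lowest weights (0.164 and 0.208).

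Injury raised most members in both genotypes. At day 1 the fit called 9 of 10 member probe sets in KO, 7 higher and 2 lower than in KO sham, while 44.6% of all tested probe sets were called, 20.9% higher and 23.7% lower. In WT 9 of 10 were called, 8 higher and 1 lower, beside 52.9% of all, 24% higher and 28.9% lower. At day 3 it called 8 of 10 in KO and 8 of 10 in WT, all higher than sham, beside 64.8% in KO and 61.8% in WT over all probe sets, of which 28.2% and 26.1% were higher. At day 7 it called 4 of 10 in KO and 6 of 10 in WT, all higher, beside 47.2% and 53.5%, of which 19.8% and 21.8% were higher. The shares called in either direction are large over the whole array, and a member's call alone does not set it apart. Slc39a14 1438490_at and 1457770_at reached the filter in 0 sham arrays and passed it through injured arrays alone, so they had to read higher after injury. Among the other 8 probe sets the calls numbered 7, 6 and 4 in KO and 7, 6 and 5 in WT at day 1, day 3 and day 7. Without day 3 WT replicate 2 the day 3 count in WT was 7 of 10. With sham KO replicate 2 (by label) and both arrays of conflicting labels left out, a setting chosen after seeing the data, the counts in KO were 9, 7 and 4. The median log2 difference of the 10 members that passed the filter, these 2 included, was 1.42, 0.89 and 0.60 in KO and 1.19, 1.12 and 0.82 in WT at day 1, day 3 and day 7, while the median over all probe sets lay between −0.08 and −0.04. The 3 injured groups of a genotype share its sham arrays, so these comparisons are not independent. Calls are from limma across all arrays, at a Benjamini-Hochberg adjusted p under 0.05 over 24573 probe sets, and the plot of changes from sham gives the time course of each member.

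**Figure D1:**
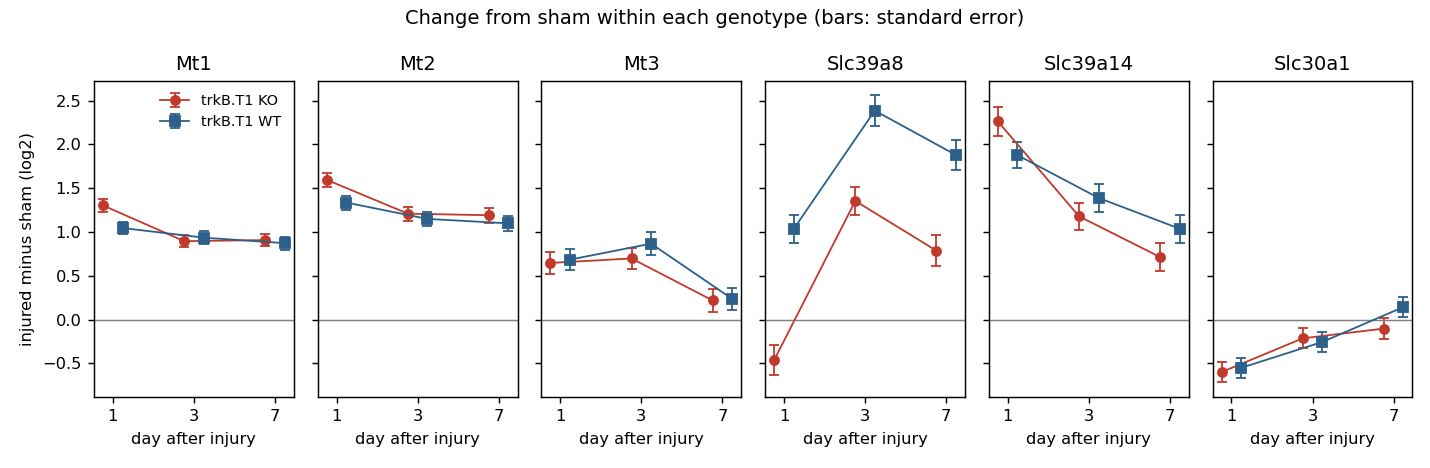
Change from sham (log2, y axis) of the brightest probe set of each member at day 1, day 3 and day 7 (x axis), KO in red circles and WT in blue squares, with standard errors as bars. Mt1, Mt2 and Slc39a14 had their highest mean at day 1 in both genotypes, though in WT the fall to day 3 was not called for Mt1 and Mt2. Slc39a8 at day 1 was −0.46 in KO and 1.04 in WT.

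Mt1 and Mt2 were already bright in sham cords, and on the brightest probe set of each the group means were highest at day 1. Mt1 (1422557_s_at, which may match several transcripts, as its suffix marks) read 13.682, 13.728, 13.615 and 13.617 in sham KO cords and 13.705, 13.733, 13.906 and 13.856 in sham WT cords. At day 1 it read 15.015, 14.997, 14.952 and 14.894 in KO and 14.917, 14.746, 14.733, 14.865 and 14.967 in WT. Every injured array of either genotype lay above every sham array of it. Mt1 rose by log2 1.30 ± 0.07 in KO (SE, adjusted p = 2.05e-14), or 2.47-fold, and by 1.05 ± 0.07 in WT (adjusted p = 5.06e-13), or 2.06-fold, at day 1. These values lie near the top of the range of the arrays, 15.904.

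At day 3 Mt1 read 14.48, 14.681, 14.455, 14.661 and 14.505 in KO and 14.684, 14.972, 14.655 and 14.63 in WT. By day 7 it stood at 14.529, 14.62, 14.529 and 14.597 in KO and 14.61, 14.758, 14.71 and 14.614 in WT. It was still higher than sham by 0.90 and 0.91 in KO and by 0.94 and 0.87 in WT, each called. Between day 1 and day 3 Mt1 fell by 0.41 in KO (adjusted p = 2.44e-05) with no overlap of arrays. In WT the change of −0.11 was not called (adjusted p = 0.242), and without day 3 WT replicate 2, the highest array of its group, it was −0.19 (adjusted p = 0.0288). Whether the drop differed between genotypes was not tested. From day 3 to day 7 the values were 0.01 in KO and −0.06 in WT, not called.

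The second Mt1 probe set, 1451612_at, was dim and rose as well. It read 4.7 to 5.432 in sham KO cords and 4.717 to 4.914 in sham WT cords. At day 1 its arrays ran from 6.777 to 7.367 in KO and from 5.431 to 7.673 in WT, differences of 1.99 ± 0.38 (adjusted p = 0.000117) and 1.497 ± 0.36 (adjusted p = 0.00105). At day 3 the difference was 1.32 in KO (adjusted p = 0.00216) and 2.23 in WT (adjusted p = 1.28e-05), and WT replicate 2 read 8.273, above all other arrays. Both Mt1 probe sets thus called a rise at day 1 and day 3 in both genotypes. Their timing differed in WT, where 1451612_at averaged 6.319 at day 1 and 7.051 at day 3, a step not called. At day 7 this probe set was called in WT (1.48, adjusted p = 0.00179) but missed the threshold in KO (0.72, adjusted p = 0.12).

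Mt2 (1428942_at), the neighbour and close relative of Mt1, followed the same course. Sham KO arrays read 13.105, 13.003, 13.097 and 13.161 and sham WT arrays 13.095, 13.092, 13.228 and 13.492. At day 1 the values were 14.69, 14.763, 14.628 and 14.668 in KO and 14.61, 14.521, 14.444, 14.573 and 14.67 in WT. All injured arrays lay above all sham arrays. The rise at day 1 was 1.60 ± 0.08 in KO (3.02-fold, adjusted p = 6.33e-15) and 1.34 ± 0.08 in WT (2.53-fold, adjusted p = 5.89e-14). At day 3 Mt2 read 14.17, 14.342, 14.239, 14.477 and 14.279 in KO and 14.341, 14.627, 14.303 and 14.235 in WT. At day 7 it read 14.206, 14.368, 14.254 and 14.306 in KO and 14.27, 14.411, 14.381 and 14.24 in WT. It remained above sham by 1.21 and 1.19 in KO and by 1.15 and 1.10 in WT, all called. Its fall between day 1 and day 3 was called in KO (−0.39, adjusted p = 0.00027) and not in WT (−0.19, adjusted p = 0.0811, or −0.27, adjusted p = 0.00982, without day 3 WT replicate 2).

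Mt3 (1420575_at), first described as a growth inhibitory factor of neurons, rose at day 1 and day 3 and was no longer called against sham at day 7. It read 9.933, 10.104, 10.056 and 10.001 in sham KO cords and 10.036, 9.895, 10.041 and 10.274 in sham WT cords. At day 1 the KO arrays read 10.778, 10.533, 10.696 and 10.677 and the WT arrays 11.025, 10.742, 10.618, 10.705 and 10.641. Day 3 values were 10.655, 10.821, 10.523, 10.786 and 10.825 in KO and 10.881, 11.401, 10.716 and 10.718 in WT. All of these lay above the sham arrays of their genotype. Mt3 rose by 0.65 ± 0.13 in KO (adjusted p = 0.000174) and 0.69 ± 0.12 in WT (adjusted p = 3.29e-05) at day 1, and by 0.70 and 0.87 at day 3. At day 7 it read 10.137, 10.342, 10.211 and 10.276 in KO and 10.235, 10.58, 10.434 and 9.945 in WT. That left 0.22 in KO (adjusted p = 0.163) and 0.24 in WT (adjusted p = 0.12), neither called, although all 4 day 7 KO arrays lay above all sham KO arrays, while the WT arrays overlapped. Its fall from day 3 to day 7 was called in KO (−0.48, adjusted p = 0.00409) and in WT (−0.63, adjusted p = 0.000738). Without day 7 WT replicate 4, the lowest array of its group, the WT difference from sham at day 7 was 0.36 (adjusted p = 0.0226).

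**Figure D2:**
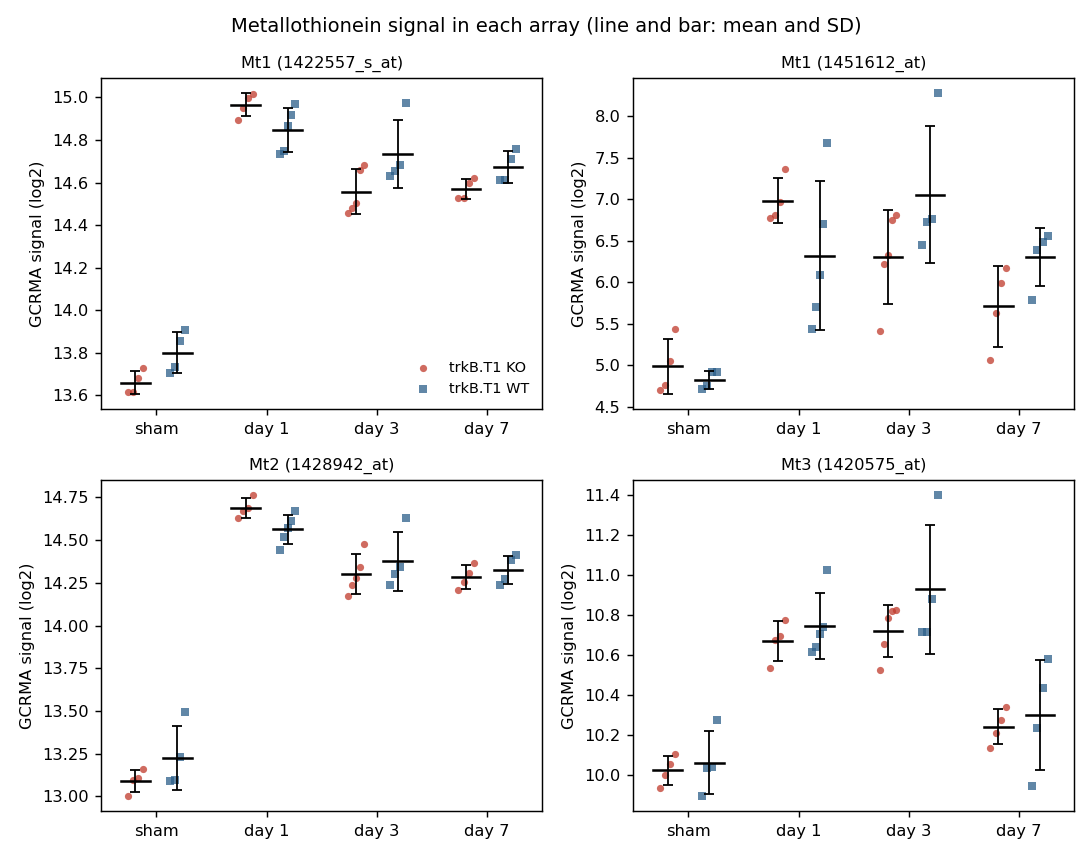
GCRMA signal (log2, y axis) of the 4 metallothionein probe sets in each array, by time point (x axis), KO in red left of WT in blue. Lines and bars are the group mean and SD, and all injured Mt1 1422557_s_at and Mt2 arrays lie above all sham arrays.

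No metallothionein probe set was called different between genotypes at any time. KO minus WT for Mt1 1422557_s_at was −0.14 in sham cords and 0.12, −0.18 and −0.10 on days 1, 3 and 7, with adjusted p from 0.405 to 1. For Mt2 the differences were −0.14, 0.12, −0.08 and −0.04, and for Mt3 −0.04, −0.08, −0.21 and −0.06. The 95% interval of the day 1 difference ran from −0.02 to 0.26 for Mt1 and from −0.04 to 0.29 for Mt2. The rise from sham to day 1 was larger in KO by 0.26 in both Mt1 and Mt2, which did not pass (adjusted p = 0.726 and 0.857). Mt4, the form of stratified epithelia, read at most 2.698 and was not tested. On its brightest probe set Mtf1, the metal-sensing transcription factor, was lower than sham at day 3 in WT (−0.39, adjusted p = 0.0127). There it was not called in KO (−0.20, adjusted p = 0.155) or at other times. By the mean of its probe sets, Mtf1 was not called at day 3 in WT and was called lower than sham at day 7 in KO. The Mtf1 call thus depends on the probe sets used.

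Slc39a14 (1427035_at), which encodes ZIP14, rose most of the members at day 1. It read 6.492, 6.818, 6.753 and 6.699 in sham KO cords and 6.766, 6.634, 6.781 and 6.541 in sham WT cords. At day 1 the KO arrays read 9.173, 9.008, 8.701 and 8.932 and the WT arrays 8.658, 8.552, 8.275, 8.662 and 8.653. Each day 1 KO array lay above each day 1 WT array, and both groups lay clear of sham. The rise was 2.26 ± 0.16 in KO (4.8-fold, adjusted p = 4.35e-12) and 1.88 ± 0.15 in WT (3.68-fold, adjusted p = 5.02e-11). KO minus WT at day 1 was 0.39 ± 0.15 and did not pass (adjusted p = 0.382, 95% interval 0.08 to 0.71). The difference in response was 0.38 ± 0.22 (adjusted p = 0.977).

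Slc39a14 then declined over the following days in both genotypes. Day 3 arrays read 7.749, 7.739, 8.028, 8.149 and 7.684 in KO and 7.645, 8.828, 8.037 and 7.773 in WT. Day 7 arrays read 7.492, 7.496, 7.34 and 7.29 in KO and 7.629, 7.705, 7.634 and 7.905 in WT. All lay above sham, by 1.18 and 0.71 in KO (adjusted p = 1.45e-07, then 0.000664) and by 1.39 and 1.04 in WT (adjusted p = 3.4e-08, then 5.55e-06). Between day 1 and day 3 it changed by −1.08 ± 0.15 in KO (adjusted p = 1.89e-06) and by −0.49 ± 0.15 in WT (adjusted p = 0.0183). In WT that call was lost without day 3 WT replicate 1 (−0.35, adjusted p = 0.103), without day 3 WT replicate 4 (−0.39, adjusted p = 0.075) and without both arrays of conflicting labels (−0.46, adjusted p = 0.0685). The fall from day 3 to day 7 was called in KO (−0.47, adjusted p = 0.0226) and not in WT (−0.35, adjusted p = 0.126), and in KO it was lost without any 1 of day 3 KO replicates 3 and 4 and day 7 KO replicates 3 and 4 (adjusted p = 0.0627, 0.0745, 0.0566 and 0.0637). In WT it was −0.49 without day 3 WT replicate 1 (adjusted p = 0.031).

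The dimmer Slc39a14 probe sets were also called higher at day 1, but they add no independent support. 1438490_at reached the filter in 12 arrays, of which only 3 were not day 1 arrays, so the filter kept it through its day 1 values. On 1438490_at the day 1 arrays read 4.746 to 5.595 in KO and 4.705 to 5.775 in WT, against 2.508 to 3.987 in sham KO and 2.952 to 3.251 in sham WT. The differences were 1.84 ± 0.29 in KO and 2.08 ± 0.27 in WT, both called. On 1457770_at the day 1 arrays read 4.558 to 5.196 in KO and 3.847 to 5.769 in WT, and the differences were 1.54 ± 0.33 and 1.42 ± 0.32, again called. Both probe sets lay under the filter value of 4 in sham, and 1457770_at read 3.759 in all 4 day 7 KO arrays, so their sizes are less certain than that of 1427035_at. At day 3 both were called higher in KO (0.85 and 0.89) and WT (1.22 and 1.09). Without day 3 WT replicate 2 the 1457770_at value in WT was 0.64 (adjusted p = 0.0565), and leaving out sham KO replicate 2 by label, the 1438490_at value in KO was 0.61 (adjusted p = 0.0584). Without sham KO replicate 4 the 1457770_at value in KO was 0.79 (adjusted p = 0.05).

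Slc30a1 (1436164_at), which encodes ZnT1, was the member that fell at day 1 in both genotypes. It read 9.122, 9.234, 9.156 and 9.261 in sham KO cords and 9.042, 9.203, 9.232 and 9.289 in sham WT cords. At day 1 it read 8.576, 8.847, 8.49 and 8.464 in KO and 8.668, 8.537, 8.73, 8.652 and 8.614 in WT. No day 1 array reached a sham array of its genotype. The change was −0.60 ± 0.12 in KO (1.51-fold lower, adjusted p = 0.000192) and −0.55 ± 0.11 in WT (1.47-fold lower, adjusted p = 0.000197). Day 3 arrays read 8.828, 9.133, 9.024, 9.28 and 8.632 in KO and 9.092, 8.6, 9.038 and 9.012 in WT. Day 7 arrays read 8.983, 8.972, 9.232 and 9.174 in KO and 9.314, 9.139, 9.274 and 9.61 in WT. These overlapped sham, and the differences of −0.21 and −0.10 in KO and −0.26 and 0.14 in WT were not called. With each array centred on its median, which shifted the day 3 differences of every probe set by −0.16 in KO and −0.17 in WT, the day 3 values of Slc30a1 were called lower (−0.38 in KO and −0.42 in WT), which made 9 of 10 members called in either genotype, 8 higher and 1 lower. The day 3 call was also made without day 3 KO replicate 4 in KO (−0.29) and without day 3 WT replicate 1 (−0.31) or sham WT replicate 1 (−0.31) in WT.

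The second Slc30a1 probe set, 1422786_at, was not called lower. Its arrays read 5.409 to 5.686 in KO and 5.334 to 6.259 in WT at day 1, against 5.32 to 5.436 in sham KO and 5.35 to 5.539 in sham WT. The day 1 differences were 0.14 ± 0.17 (adjusted p = 0.52, 95% interval −0.20 to 0.48) and 0.17 ± 0.16 (adjusted p = 0.387, −0.15 to 0.49). It read exactly 5.436 in 7 arrays and 5.409 in 4 arrays, repeated values of the kind a background level gives, and a fall below such a level could not be seen. The fall of Slc30a1 therefore rests on 1436164_at alone. The rise of 1436164_at from day 1 to day 3 was called in KO (0.39, adjusted p = 0.00638) and missed the threshold in WT (0.30, adjusted p = 0.0517, or 0.41, adjusted p = 0.00747, without day 3 WT replicate 2). From day 3 to day 7 it rose in WT by 0.40 (adjusted p = 0.0178), a call lost without day 3 WT replicate 2 (0.29, adjusted p = 0.112) or day 7 WT replicate 4 (0.31, adjusted p = 0.0829), while KO changed by 0.11 (adjusted p = 0.478).

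Slc39a8 (1416832_at), which encodes ZIP8, was the member called different between genotypes. Sham KO arrays read 6.309, 5.943, 5.855 and 6.173 and sham WT arrays 4.802, 5.212, 5.371 and 5.051. Every sham KO array lay above every sham WT array. The difference was 0.96 ± 0.17 (1.95-fold, adjusted p = 0.0154), the only member called of 10, beside 0.0529% of all probe sets called and 0.0366% called higher. The library labelled sham KO replicate 2, whose signal on some Ntrk2 probe sets went against its label, read 5.943. Without it the difference was 1.00 (adjusted p = 0.0259). The call was lost without sham KO replicate 1 (0.88, adjusted p = 0.0943), sham KO replicate 4 (0.93, adjusted p = 0.104), sham WT replicate 1 (0.86, adjusted p = 0.0945) or sham WT replicate 4 (0.94, adjusted p = 0.0518). It was also lost when the 8 sham arrays were fitted alone (adjusted p = 0.193) and when the conflicting arrays were grouped by their source and time fields (0.70, adjusted p = 0.982).

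At day 1 the 2 genotypes had changed in opposite directions. The KO arrays read 5.805, 5.567, 5.44 and 5.624 and the WT arrays 6.067, 6.421, 6.251, 6.095 and 5.887. Here every KO array lay below every WT array and below every sham KO array. Slc39a8 changed in KO by −0.46 ± 0.17 (1.38-fold lower, adjusted p = 0.0323) and in WT by 1.04 ± 0.17 (2.05-fold, adjusted p = 8.07e-06). The injury-by-genotype difference at day 1 was −1.50 ± 0.24 (adjusted p = 0.00372, 95% interval −1.99 to −1.01), 1 of 17 probe sets called in that comparison, all of them lower, or 0.0692% of those tested. It is the sum of the day 1 difference between genotypes, −0.54 ± 0.17, which did not pass (adjusted p = 0.181), and the sham difference of 0.96 with its sign turned. The injury-by-genotype call was made in all 17 fits that left out 1 of its arrays (adjusted p from 0.00248 to 0.0139). It was not made when the conflicting arrays were grouped by their source and time fields (−1.17, adjusted p = 1), and it was made when they were left out (−1.43, adjusted p = 0.0249). The fall in KO was less firm, and its call was lost without sham KO replicate 1 or 4 or day 1 KO replicate 2, 3 or 4 (adjusted p from 0.0527 to 0.105) or with no filter on dim probe sets (adjusted p = 0.0608).

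By day 3 Slc39a8 stood at its highest in both genotypes. It read 7.434, 7.428, 7.454, 7.955 and 6.854 in KO and 7.342, 7.74, 7.543 and 7.357 in WT. At day 7 it read 6.809, 6.646, 6.906 and 7.066 in KO and 7.048, 6.719, 6.76 and 7.428 in WT. KO and WT arrays overlapped at both times, with differences of −0.07 (adjusted p = 0.899) and −0.13 (adjusted p = 1). The rise above sham was 1.36 ± 0.17 and 0.79 ± 0.17 in KO and 2.39 ± 0.17 and 1.88 ± 0.17 in WT, all called and with no overlap with sham. The differences in response, −1.03 on day 3 (adjusted p = 0.445) and −1.09 on day 7 (adjusted p = 0.523), did not pass. Slc39a8 fell from day 3 to day 7 in KO (−0.57, adjusted p = 0.0111) and in WT (−0.51, adjusted p = 0.0394). In WT that call was lost without single arrays such as day 3 WT replicate 2 (−0.43, adjusted p = 0.143) and day 7 WT replicate 2 (−0.42, adjusted p = 0.133), among 5 in all. For this step 3 of 10 members were called in KO, all lower, beside 30.4% of all probe sets called and 14.2% called lower. In WT 3 of 10 were called, 1 higher and 2 lower, beside 19.2% of all, 8.64% higher and 10.5% lower.

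**Figure D3:**
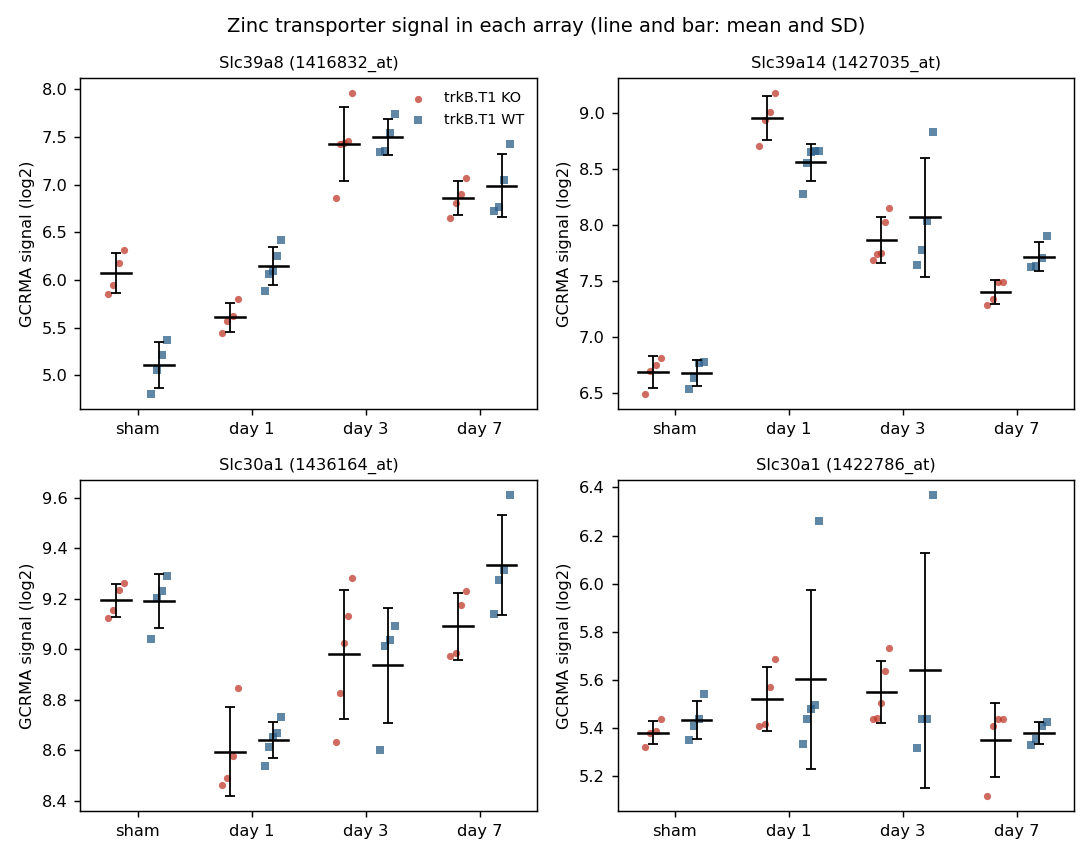
GCRMA signal (log2, y axis) of Slc39a8, Slc39a14 and the 2 Slc30a1 probe sets in each array, by time point (x axis), KO in red left of WT in blue, with group mean and SD. Slc39a8 is higher in KO than WT arrays in sham and lower at day 1, with no overlap in either.

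In sham cords, markers of blood vessels, Schwann cells and skeletal muscle leaned higher in KO, as Slc39a8 did. The mean of 5 endothelial markers (Pecam1, Cldn5, Tek, Flt1 and Kdr) was 6.362 to 6.634 in sham KO arrays and 5.881 to 6.091 in sham WT arrays. The mean of 3 pericyte markers (Rgs5, Pdgfrb and Kcnj8) was 8.671 to 8.827 in sham KO and 8.198 to 8.353 in sham WT. Both means were without overlap, although 0 of 5 and 0 of 3 genes were called by limma (medians 0.42 and 0.44). Of 3 tested Schwann cell genes Egr2, which is also an immediate early gene, was called higher in sham KO (2.19, adjusted p = 0.00507), while Pmp2 (2.79) and Pmp22 (0.92) were not called. The mean of these 3 was 5.786 to 8.965 in sham KO and 5.495 to 6.271 in sham WT, and its lowest KO value was that of replicate 2. The mean of 5 skeletal muscle markers was 8.291 to 11.258 in sham KO and 2.829 to 9.583 in sham WT, with 0 of 5 called. At day 1 the endothelial mean was 6.839 to 7.192 in KO and 6.967 to 7.355 in WT, and the pericyte mean was 8.761 to 9.106 in KO and 8.582 to 8.901 in WT. Both vascular means overlapped between the genotypes at day 1, where Slc39a8 did not. From sham to day 1 in KO, 1 of 5 endothelial genes (Pecam1, 1.72) and 1 of 3 pericyte genes (Kcnj8, 0.65) were called higher. Of the pericyte genes not called, Rgs5 moved down (−0.69, adjusted p = 0.0674), as Slc39a8 did, and Pdgfrb up (0.42, adjusted p = 0.237). In WT all 5 endothelial and 2 of 3 pericyte genes were called higher in that step. Skeletal muscle markers moved the same way as Slc39a8 in KO, with 5 of 5 called lower and a mean of 3.148 to 7.173 at day 1. In WT 0 of 5 were called and the mean was 2.868 to 8.637. Of the Schwann cell genes 1 of 3 was called higher in KO (Egr2, 2.03) and 3 of 3 in WT. At day 7 in KO the endothelial mean was 5.738 to 6.131 and the muscle mean 3.889 to 5.497, both below sham KO. The pericyte mean was 8.512 to 8.915, overlapping sham KO. Slc39a8 read 6.646 to 7.066 there, above its sham KO range of 5.855 to 6.309. Macrophage markers averaged 4.723 to 6.016 in sham KO and 5.656 to 6.008 in sham WT, with overlap. The part of vessel, Schwann cell and muscle content in the Slc39a8 differences was not tested.

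**Figure D4:**
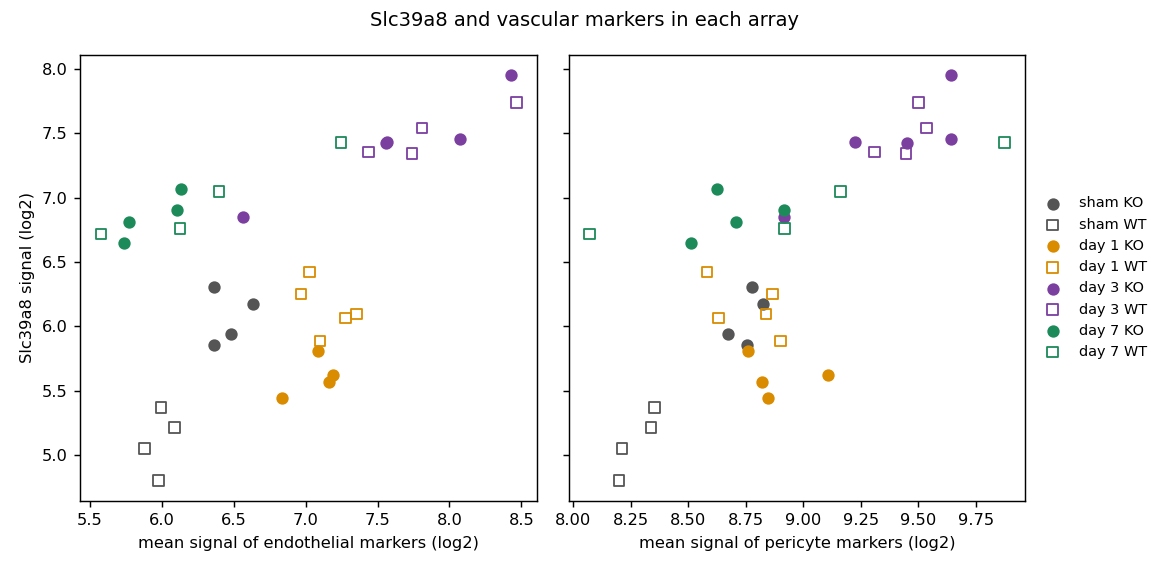
Slc39a8 signal (log2, y axis) in each array against the mean signal of 5 endothelial (left) and 3 pericyte markers (right, log2), filled circles KO and open squares WT, coloured by time point. The sham KO arrays lie above and to the right of the sham WT arrays in both panels.

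No other member was called different between genotypes. At day 1, day 3 and day 7 and over the mean of 4 conditions limma called 0 of 10 members between KO and WT, beside 0.549%, 0.0366%, 0.0407% and 0.126% of all probe sets. At an unadjusted p under 0.05 there were 2, 2, 1 and 1 members. The injury-by-genotype difference called 0 of 10 at day 3 and at day 7, beside 0% and 0.00407% of all, with 1 member each at an unadjusted p under 0.05. From day 1 to day 3, 6 of 10 members were called in KO (2 higher, 4 lower) and 3 of 10 in WT (1 higher, 2 lower), beside 46.6% of all probe sets in KO (19.4% higher, 27.2% lower) and 27.1% in WT (11.7% higher, 15.4% lower). Without day 3 WT replicate 2 the WT count was 7 of 10. The Slc39a8 rise in that step was 1.82 ± 0.17 in KO and 1.35 ± 0.17 in WT, both called.

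Other zinc transporter genes were called in both directions. Of 12 other importer genes of the SLC39 family 9 were tested, and Slc39a2, Slc39a4 and Slc39a5 lay below the filter. At day 1, 2 were higher and 2 lower in KO, and 3 were higher and 3 lower in WT, with medians of 0.10 and 0.11, beside 20.9% higher and 23.7% lower over all probe sets in KO and 24% and 28.9% in WT. Slc39a1, which encodes the zinc importer ZIP1, averaged 10.591 in KO and 10.724 in WT at day 1, against 8.994 in sham KO and 8.98 in sham WT. It rose by 1.60, 1.96 and 1.52 in KO and by 1.75, 1.88 and 1.65 in WT at day 1, day 3 and day 7. Slc39a12, which encodes ZIP12, a transporter enriched in the nervous system, fell by 1.08 in KO and by 1.27 in WT at day 1 and by 1.01 in KO and by 0.98 in WT at day 3. At day 7 its differences of 0.05 in KO and 0.05 in WT were not called. Slc39a3 (−0.34 in KO and −0.55 in WT) was lower and Slc39a7 (0.30 and 0.41), which encodes an importer of the endoplasmic reticulum and Golgi, was higher at day 1.

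Of 9 other exporter genes of the SLC30 family 6 were tested, and Slc30a2, Slc30a8 and Slc30a10 were not. At day 1, 1 was higher and 1 lower in KO, and 3 were higher and 2 lower in WT. Over all probe sets the shares were 20.9% higher and 23.7% lower in KO and 24% and 28.9% in WT. Slc30a3, which loads zinc into synaptic vesicles, was lower at day 3 in KO (−0.92) and WT (−0.76) and at day 7 in KO (−0.72) and WT (−0.83). At day 1 it was called in WT (−0.72, adjusted p = 0.00674) and not in KO (−0.48, adjusted p = 0.0867). Slc30a9 was lower at all 3 times in both genotypes, with −0.26, −0.59 and −0.31 in KO and −0.21, −0.45 and −0.32 in WT. Slc30a4 rose in WT at day 1 (0.33, adjusted p = 1.73e-05), and its KO value of 0.13 was not called. Neuron markers, which averaged 13.198 to 13.33 in sham KO arrays and 13.257 to 13.293 in sham WT arrays, read 11.386 to 12.546 in KO and 12.093 to 12.471 in WT at day 3. Their part in the falls of Slc30a3 was not tested.

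**Figure D5:**
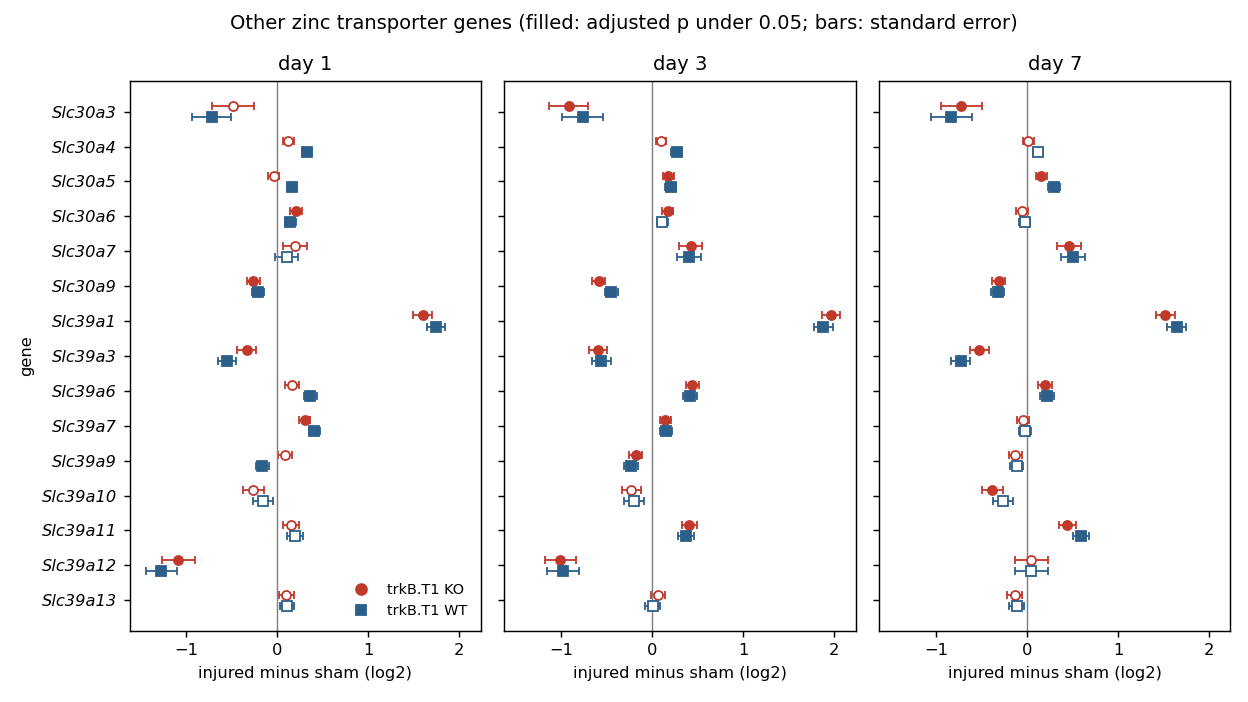
Change from sham (log2, x axis) of 15 other zinc transporter genes (y axis) at day 1, day 3 and day 7, KO in red above WT in blue, with standard errors as bars and filled symbols for adjusted p under 0.05. Slc39a1 lies farthest to the right and Slc39a12 farthest to the left at day 1.

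Genes of programmes known to induce metallothioneins were examined at day 1, when 20.9% of all probe sets were called higher in KO and 24% in WT. Of 13 genes induced by glucocorticoids 10 rose and 0 fell in KO at day 1 and 8 rose and 2 fell in WT, with medians of 1.26 and 1.11. At day 3, 5 were higher and 2 lower in KO and 9 were higher and 0 lower in WT, and at day 7 the counts were 5 and 0 in KO and 4 and 1 in WT. The genes that rose at day 1 included Cebpd (5.20 in KO and 5.41 in WT), a transcription factor of the acute phase, Map3k6 (2.86 and 1.93), Sgk1 (2.18 and 1.59) and Fkbp5 (2.04 and 1.42), which encodes a chaperone of the glucocorticoid receptor. In WT the means of Tsc22d3, Ddit4 and Klf9 went down from sham to day 1 (11.506 to 10.923, 9.918 to 9.002 and 13.643 to 13.363). Tsc22d3 averaged 11.646 in sham KO and 11.586 at day 1 in KO. Between genotypes at day 1, Ddit4 (0.98, adjusted p = 0.0123) and Klf9 (0.65, adjusted p = 0.0362) were higher in KO and the other 11 were not called. From sham to day 1 in KO, the mean of Ddit4 went from 10.096 to 9.978 and that of Klf9 from 13.719 to 14.011, beside the lower means in WT. Of 13 genes of the interleukin 6 and STAT3 pathway all rose at day 1 in KO and in WT, with medians of 4.15 and 4.12, among them Socs3 (6.35 and 6.66), a feedback inhibitor of cytokine signalling. Of 11 antioxidant genes driven by NRF2, 7 rose and 1 fell in KO and 8 rose and 2 fell in WT at day 1, led by the heme oxygenase gene Hmox1 (6.84 and 7.42). Of 10 copper handling genes 4 rose and 1 fell in KO and 3 rose and 2 fell in WT, led by the ceruloplasmin gene Cp (2.08 and 2.86). The WT counts are not far from the shares over all probe sets, 24% higher and 28.9% lower. In KO those shares were 20.9% higher and 23.7% lower, and a difference from them was not tested. Macrophage markers averaged 8.643 to 9.163 in KO and 8.926 to 9.679 in WT at day 1, against 4.723 to 6.016 in sham KO and 5.656 to 6.008 in sham WT, and their part in these rises was not tested. Astrocyte markers moved in both directions at day 1. Gfap (1.32 in KO and 1.19 in WT) and Aldh1l1 (0.93 and 0.82) rose, and Gja1 (−1.08 and −1.05) and Slc1a3 (−0.67 and −0.75) fell, while Aqp4 (−0.42 and −0.42) and Slc1a2 (−0.24 and −0.35) were called lower in WT and not in KO. Their mean signal at day 1 (12.061 to 12.198 in KO and 12.084 to 12.18 in WT) overlapped that of sham (12.101 to 12.234 in KO and 12.172 to 12.29 in WT), and the part of astrocyte changes in the metallothionein rises was not tested.

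Similarity of pattern was measured by Pearson's r over the 8 group means, among 6505 probe sets naming 1 gene and ranging over at least 1 log2 unit. These r values describe 8 points, share arrays and depend on injury as a common factor. Mt1 was most like Mt2 (0.996), then Crh (0.99), Ptx3 (0.988), Zdhhc18 (0.985) and Mcl1 (0.984). Mt2 was most like Mt1, Cd14 (0.993), Ptx3 (0.992), Zdhhc18 (0.992) and Mcl1 (0.99). Mt3 was most like Ube2d3 (0.995), Nrcam (0.992), Atf5, Azin1 and Ddx46. Slc39a14 was most like Eif4e (0.992), Adamts9 (0.991), Rcan1, Cttn and Aspg. Slc30a1 was most like Adamts20 (0.977), Klhl24, Padi2, Ppp1r3c and Siae. Slc39a8 was most like Fbxl7 (0.989), Apcdd1 (0.979), Lama4 (0.968), which encodes a laminin chain of vessel basement membranes, Nat2 and Arhgap29. Among the members, Mt1 had r of 0.926 with Slc39a14, 0.794 with Mt3, 0.407 with Slc39a8 and −0.63 with Slc30a1. Slc39a14 and Slc30a1 had r of −0.833, and Slc39a8 had r under 0.5 with every other member.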

How the data were processed

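Total RNA from thoracic spinal cord was hybridised to 34 arrays, 1 per biological replicate per the labels. The authors' deposited values are in log2 units and were computed by GCRMA, per the submitters' processing notes, with no version given. A genome build was not given in the sources used here. Values were used as deposited, and no 2 arrays were identical (0 pairs). Gene names came from the platform annotation. Promoter sequences, gene positions and the build GRCm38.p6 came from RefSeq.

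After 64 controls were left out, 24573 probe sets that reached log2 4 in 4 or more arrays were kept for testing. One mean for each of the 8 groups was estimated by limma 3.58.1 under R 4.3.3 (lmFit and eBayes, 26 residual and 2.62 prior degrees of freedom), with Benjamini-Hochberg adjustment over all probe sets of a comparison and a threshold of 0.05. It was tested on simulated data with independent normal noise, which held no outlying arrays or repeated background values as these data do. Every probe set of a member was named, and a gene of another list was represented by its brightest probe set, with up to 4 genes named by size of change, plus Mtf1 and Mt4 always, and the 5 genes most like each member. The members and lists were chosen with earlier results of these data known. Arrays were grouped by title. Alternatives were other filters, scalings, variance priors, array weights, subsets of arrays and a replicate block. The number of arrays limits precision.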

Additional observations from a re-analysis of the deposited data

Results flagged for a closer look

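In groups of 4 or 5 arrays, a member value was singled out where its gap to the next array exceeded Dixon's critical share of the group's range. Of 79 groups of values 11 held such an array, and chance gives about 1 in 20 for independent normal values. Slc39a14 1438490_at and 1457770_at and Slc30a1 1422786_at repeat the same value in several arrays, and 1 array recurs. The count therefore cannot be set against that rate. Day 3 WT replicate 2 accounted for 5 of the 11. It read 14.972 for Mt1 (1422557_s_at, next array 14.684), 5.529 and 5.639 for Slc39a14 (1438490_at and 1457770_at), and 8.6 and 6.368 for Slc30a1 (1436164_at and 1422786_at). The other 6 were Slc39a14 1427035_at at 8.275 in day 1 WT replicate 3, Slc39a14 1438490_at at 4.339 in day 3 KO replicate 2 and at 3.597 in day 7 WT replicate 1, Slc39a14 1457770_at at 3.759 in sham WT replicate 1, and Slc30a1 1422786_at at 6.259 in day 1 WT replicate 2 and at 5.117 in day 7 KO replicate 1.

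The response of Slc39a8 to injury at day 1 differed between KO and WT by the test of the difference itself, with −1.497 on the log2 scale.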

How the results depend on the processing

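Of 3946 member values under 34 settings that left out 1 array and 11 others, 3839 kept their direction and call or had no call in either fit, 66 lost the call, 41 gained it and 0 called values changed sign. Of the 3839, 138 changed sign with no call in either fit. With array weights the members called were 6 from day 1 to day 3 in WT (3 in the fit reported), 7 in KO at day 7 against sham (4), 2 for KO against WT at day 1 (0, then Slc39a8 and Slc39a14) and 1 for injury by genotype at day 7 (0, then Slc39a8). With only the arrays compared they were 1 from day 1 to day 3 and 0 from day 3 to day 7 in WT (3), 7 in KO at day 7 (4) and 0 for KO against WT in sham (1). That setting was not run for the mean of 4 conditions, where all arrays enter. With quantile normalization 5 were called from day 1 to day 3 in WT. With the conflicting arrays grouped by source and time fields, the counts were 1 and 0 for these WT steps, 1 from day 3 to day 7 in KO (3), 0 for the sham genotype contrast and 0 for the day 1 injury-by-genotype contrast (1). Leaving out 1 array gave 1 to 7 from day 1 to day 3 in WT (7 without day 3 WT replicate 2, 1 without day 3 WT replicate 1 or 4), 1 to 4 from day 3 to day 7 in WT (1 without day 3 WT replicate 2) and 0 to 1 for KO against WT in sham. The cause of these moves was not tested. Same-numbered arrays did not deviate together by the median (r 0.005 over 113 pairs, −0.004 over pairs of different number). That gave no sign of pairing by number, but a median cannot exclude it in some groups. With a replicate block 1 member was called for KO against WT at day 1, Slc39a8 (−0.64, adjusted p = 0.0377), and the number of members called moved in no other comparison. Without 3 doubted arrays (day 1 WT replicates 1 and 2 and sham KO replicate 2 by label), a setting chosen after seeing the data, Slc39a8 kept its sham difference (1.00, adjusted p = 0.0371) and its injury-by-genotype difference at day 1 (−1.47, adjusted p = 0.0242). Over all probe sets, KO against WT in sham had 13 calls, 2 to 94 under other settings, and KO against WT at day 1 had 135, 23 to 527.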

Other observations

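Genes of zinc-binding S100 proteins were not called higher after injury. S100b, an astrocyte protein, was lower at day 1 in KO (−0.34, adjusted p = 0.000423) and WT (−0.43, adjusted p = 9.86e-06) and at day 3 in KO (−0.63) and WT (−0.62). S100a8 and S100a9, the neutrophil proteins of calprotectin, had day 1 differences of 1.12 and 1.05 in KO and 0.51 and 0.30 in WT, none called, with standard errors of 0.59 to 0.71. Neutrophil markers ranged widely among arrays, from 5.159 to 6.38 in KO and from 3.909 to 9.017 in WT at day 1.

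Copper handling genes were higher at day 3 than in sham in 6 of 10 cases in KO and 6 of 10 in WT, with 1 of 10 lower in each, beside 28.2% and 26.1% of all probe sets called higher and 64.8% and 61.8% called in either direction. Cp rose by 2.34 in KO and 3.22 in WT, and Atp7a, the copper pump of the Golgi, by 1.18 and 1.03. Slc31a1 rose by 0.89 and 0.80, and Atox1, the copper chaperone of Atp7a, by 0.78 and 0.72. The 1 gene called lower, Cox17, which was singled out after its values were seen, fell by 0.25 in KO and by 0.39 in WT. For RNA quality, the actin control's 3′ minus 5′ signal averaged 2.083 in sham and 1.77, 1.495 and 1.94 on days 1, 3 and 7 in KO, and 1.967 in sham and 1.721, 1.488 and 1.848 on those days in WT. The Gapdh control's 3′ minus 5′ signal went the other way, with 0.096 in sham and 0.27, 0.28 and 0.444 on those days in KO and 0.066 in sham and 0.293, 0.207 and 0.415 in WT. Their part in the changes from sham was not tested.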
